A study of Mus musculus with 10 samples.

Results

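The genes described here build the sugar chains of glycoproteins, glycolipids and proteoglycans and the glycosylphosphatidylinositol (GPI) anchor that holds some proteins on the cell surface. They were chosen by symbol alone, as rows of the deposited rate table whose names begin like those of the Alg, Pig, B3ga, B3gn, B4ga, St3gal, St6gal, St8sia, Galnt, Man1, Man2, Mgat, Ext, Fut, Hs2st, Hs3st, Hs6st, Ndst, Chst, Dpm and Pom families. The pattern took in 108 of 8590 genes. By their known roles they fell into 11 genes of the dolichol-linked oligosaccharide, 15 of the GPI anchor, 14 of N-glycan trimming and branching, 5 of O-mannose and dystroglycan glycans, 11 of mucin-type O-GalNAc glycans, 16 of heparan sulfate and its linker, 6 further carbohydrate sulfotransferases, 15 sialyltransferases and 13 enzymes of galactosyl, GlcNAc and fucosyl elongation. The other 2, Pom121 (a nuclear pore protein) and Pomp (a proteasome maturation factor), matched by name only and are no glycosylation genes. Counted under N-glycan trimming and branching are also Man2b1, a lysosomal mannosidase, and Man2c1, a cytosolic mannosidase. Counts without genes matched by name only leave out Pom121 and Pomp alone.

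N-glycans are first assembled on the membrane lipid dolichol in the endoplasmic reticulum, moved as a block onto new proteins, and then trimmed and rebuilt along the Golgi. GPI anchors are likewise built stepwise on a membrane lipid and attached by a transamidase. In neurons, the products of these pathways include polysialic acid on the adhesion molecule NCAM, gangliosides in the plasma membrane, heparan sulfate chains that bind growth and guidance factors, and the glycans by which dystroglycan binds the extracellular matrix.

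The study compared cortical neurons of wild-type mice with neurons of mice labelled Fmr1-KO, after the gene for the RNA-binding protein FMRP. Both genotypes carry the strain name FVB.129P2-Pde6b+ Tyrc-ch/AntJ, came from cortices of embryonic day 18 (E18) and were used after 14 days in vitro (DIV 14). Neurons took up 200 µM 5-ethynyluridine (5-EU), a label that cells build into newly made RNA, for 20 or 60 min. Each genotype had 1 labelled library per labelling time, so n = 2 libraries per genotype, and nothing in the labels says that they came from separate cultures. p-values therefore measure the spread between libraries that also differ in labelling time. INSPEcT, a method that estimates RNA kinetics from labelled and total RNA, gave each gene a synthesis rate, a processing rate (the turnover of premature into mature RNA) and a degradation rate. Rates are printed in the units of the deposited table, whose time unit is not given in the sources used here.

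The promoters of the genes with the highest and the lowest synthesis rate in wild type, among members measured in all libraries, are shown for their contrast in base composition and motifs. Hs3st1, which adds the rare 3-O-sulfate to heparan sulfate, was synthesised at 7.48 (20 min) and 10.0 (60 min) in wild type, and Pign, which adds ethanolamine phosphate to the GPI anchor, at 0.136 and 0.161. The sequences run from 250 bases before to 50 after the start of the RefSeq gene (build GRCm38.p6), at chr5:39644582-39644881 and chr1:105663627-105663926, both on the minus strand, with CG dinucleotides in capitals.
Hs3st1: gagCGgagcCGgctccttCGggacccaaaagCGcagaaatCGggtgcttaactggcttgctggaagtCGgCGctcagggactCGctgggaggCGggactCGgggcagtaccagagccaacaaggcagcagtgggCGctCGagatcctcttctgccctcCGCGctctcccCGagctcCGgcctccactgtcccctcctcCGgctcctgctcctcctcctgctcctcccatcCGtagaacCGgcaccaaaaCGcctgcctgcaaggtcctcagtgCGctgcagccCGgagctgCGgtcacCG
Pign: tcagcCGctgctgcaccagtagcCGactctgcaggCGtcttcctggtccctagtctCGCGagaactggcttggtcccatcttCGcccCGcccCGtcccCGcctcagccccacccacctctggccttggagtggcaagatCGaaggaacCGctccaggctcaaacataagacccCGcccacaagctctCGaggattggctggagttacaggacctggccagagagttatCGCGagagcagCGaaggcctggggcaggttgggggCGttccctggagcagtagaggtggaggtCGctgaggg
The Hs3st1 window held 24 CG dinucleotides at 67.0% G and C, and the Pign window 18 at 64.0%. The letters TATAAA (the TATA box), the pentamer CCAAT (the CCAAT box) and the hexamer GGGCGG (the GC box) were searched on both strands. The Hs3st1 window held none of these, whereas the Pign window held the CCAAT box and the GC box. RefSeq promoters were matched for 85 of the 108 members, with a median of 23 CG dinucleotides against 23 over the 6677 matched genes of the rate table and 7 over all 27025 promoters. TATAAA was present in 7.06% of the members' promoters, 5.84% of those of the rate table's genes and 14.2% of all promoters. For CCAAT these shares were 44.7%, 38.6% and 37.9%, and for GGGCGG they were 63.5%, 68.5% and 35.9%. Over the 83 members with a promoter and a wild-type synthesis rate, the number of CG dinucleotides and the rate had a Spearman rho of 0.125, against 0.159 over 6230 genes. This correlation is across genes, which share libraries and base composition.

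Of the 108 members, 83 had synthesis and degradation rates in all 4 libraries and 75 had processing rates in all 4. The loss was mostly in the knockout: of the 104 members with a degradation rate at both wild-type labelling times, 18 had no knockout value (17.3%, against 19.5% of 7914 genes). Alg3, a mannosyltransferase of the dolichol-linked oligosaccharide, had no rate in any library, and Pigo, of the GPI anchor, had degradation rates in the knockout alone. B3galt6, Dpm3, Mgat2 and Pigm had a synthesis rate but no processing rate in any library, and 3 of these 4 are annotated with 1 exon. Among all genes with a synthesis but no processing rate, 74.8% of those annotated had 1 exon, against 0.130% of genes with a processing rate. The read depth behind the rates is unknown, so no counting interval is given. Of the marker lists, 4 of 10 neuron markers, 3 of 7 astrocyte markers, 5 of 8 oligodendrocyte lineage markers and 0 of 5 microglia markers were in the rate table. No knockout synthesis rate was given for Dcx and Gad2 (neurons), Aqp4 (astrocytes) or Pdgfra and Sox10 (oligodendrocyte lineage), and no synthesis rate in either genotype for Nefl (neurons). Only 1 marker of each of these 3 lists had synthesis rates in all libraries: Rbfox3 (neurons) was synthesised at 2.77, 1.24, 2.15 and 0.844, Aldh1l1 (astrocytes) at 2.11, 1.11, 2.76 and 1.23 and Olig2 (oligodendrocyte lineage) at 17.96, 12.6, 20.2 and 13.8, in the order wild type at 20 and 60 min, knockout at 20 and 60 min. Of the other markers of the oligodendrocyte lineage, Cspg4 had 0.765 in wild type against 0.631 in the knockout at 60 min and Mbp 0.779 against 0.508, both without a knockout rate at 20 min. Gja1 (astrocytes) had 2.81 against 3.08 at 20 min, without a knockout rate at 60 min. Their part in the results below was not tested, and in such bulk samples fewer cells of a type and less RNA per cell cannot be told apart. The targeted gene, Fmr1, was synthesised at 0.810 and 0.692 in wild type and at 2.06 and 1.56 in the libraries labelled Fmr1-KO. Its degradation rate was 0.0774 and 0.0672 against 2.58 and 2.66, and the mature RNA level that these rates imply, by the arithmetic given next, was 10.5 in wild type against 3.50 and 3.20. Both knockout values of this level lie below wild type, but they differ from each other and so give no common level. Fmr1 also had no processing rate at 20 min in either genotype. What its synthesis rate and level say about the label was not tested, so "knockout" below means the libraries labelled Fmr1-KO.

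The rates are tied to each other by arithmetic that bears on every comparison below. In wild type, the synthesis rate over the degradation rate, which is the mature RNA level the rates imply, was the same at 20 and 60 min to within 0.001 log2 units in 97 of 104 members. In the knockout that ratio matched in 1 of 85 members. The knockout rates did match 1 common level when degradation was read as synthesis minus the change in RNA from wild type to knockout, all over the knockout level: the level solved in this way was the same at both labelling times in 78 of 83 members (94.0%) and 5332 of 5704 genes (93.5%). For processing, the solved premature level was the same in 75 of 75 members. Both labelling times of a genotype thus share 1 RNA level. Each genotype has 2 input libraries, of which the labels list replicate 1 and not replicate 2 among the sources of the rates. The table thus gives 1 level per genotype, with no replicate value and no error. A deposited knockout degradation rate is high both where synthesis is high for the level and where the level is below that of wild type. Degradation changes are given as deposited. For comparison, each role's median and, after the roles, the changes of the called genes are also given with the knockout rate recomputed as synthesis over the solved level, a setting chosen after the data were seen.

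Degradation rates were compared by limma on log2 rates, with calls at a Benjamini-Hochberg adjusted p under 0.05 over all genes. In Fmr1-KO neurons the deposited rates of 16 of the 83 members rose and 0 fell. This is 19.3% of members, against 23.1% of all 5716 genes called in either direction and 20.5% called higher, so the share of members called was near the background. The median change of the 83 members was 0.86 on the log2 scale, knockout minus wild type, against 0.65 over all genes, with 62 members above 0 and 21 below. In 45 members both knockout libraries lay above both wild-type libraries and in 13 below, where 52.6% and 16.5% of all genes did so. The members' median degradation rate in wild type was 0.106 at 20 min and 0.128 at 60 min, against knockout medians of 0.199 and 0.210. With labelling time as a block in limma, 37 members rose and 5 fell, against 38.2% and 9.76% of all genes. After each library was centred on its own median, which removed a shift of 0.86 between genotypes, 0 members passed by limma. Of all 5716 genes 92 did. At an unadjusted limma p under 0.05 were 26 members. With the block and centring together 11 rose and 14 fell, against 13.9% and 22.4% of all genes, so which members count as raised is relative to this shift. Without the wild-type library of 60 min 0 members passed, without the knockout library of 60 min 1, and without the knockout library of 20 min 0, while 16 passed without the wild-type library of 20 min. Each of these fits had 1 residual degree of freedom per gene before limma pooled the spread over genes, and the library left alone in its genotype was assumed to vary like the pair of the other. The authors' deposited table called 29 of 88 members higher and 3 lower, against 29.2% and 7.09% of its genes, and its calls include all 16.

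**Figure D1:**
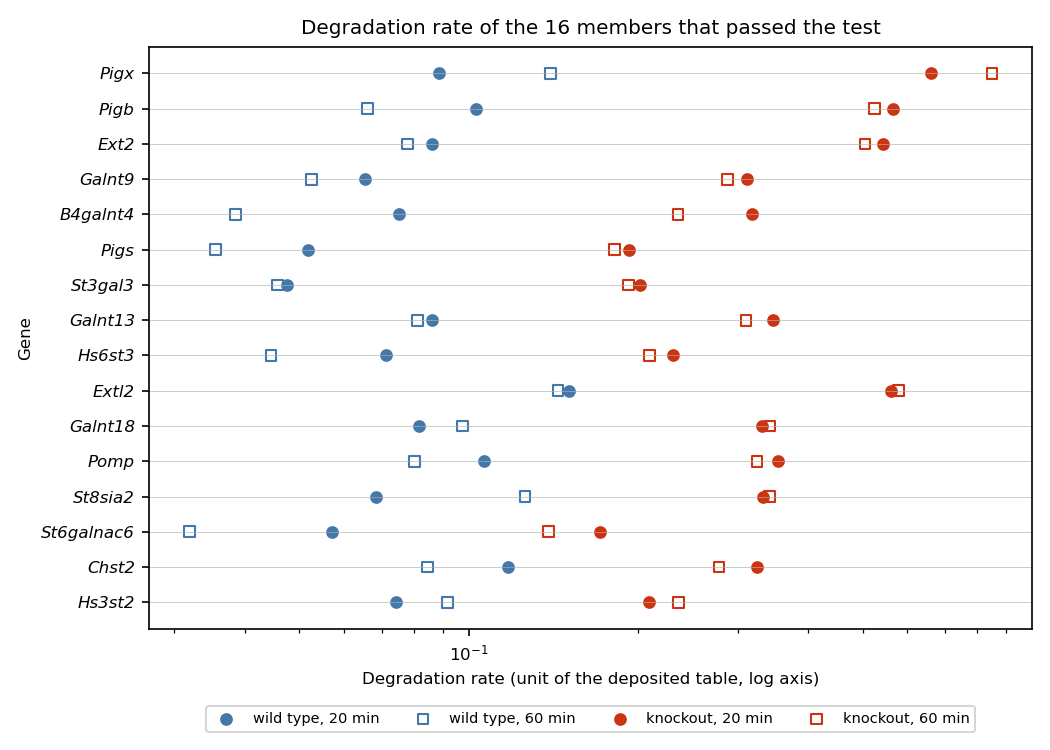
Degradation rate on a log axis, in the unit of the deposited table, of the 16 members that passed the test; circles are libraries of 20 min and squares of 60 min, blue for wild type and red for knockout, with 1 point per library. In each gene both red points lie to the right of both blue points, from Pigx (log2 change 2.75) at the top to Hs3st2 (1.43) at the bottom.

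Among the 11 genes that assemble the dolichol-linked oligosaccharide, 4 were measured and 0 rose or fell by limma, with a median change of 1.29 (0.38 over the solved level, with 3 of 4 above 0). With labelling time as a block 3 rose (Alg9, Alg5 and Alg11) and 1 fell (Alg10b). Alg9, a mannosyltransferase, was degraded at 0.169 and 0.103 in wild type against 0.404 and 0.335, which is a difference of 1.48 ± 0.41 log2 units (SE, limma adjusted p = 0.0642). Alg10b, which adds the terminal glucose, went the other way at 0.236 and 0.322 against 0.106 and 0.174. Its change was −1.02 ± 0.42 (SE, limma adjusted p = 0.141, and 0.0459 with labelling time as a block). Neither gene's libraries overlapped between genotypes. Alg5 (1.24) and Alg11 (1.34), a glucosyl- and a mannosyltransferase of the same pathway, had changes close to that of Alg9 and also passed with the block alone (limma adjusted p = 0.0290 and 0.0479, with 0.0240 for Alg9).

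Of the 12 GPI anchor genes measured, 3 rose: Pigx, Pigb and Pigs. The role's median was 1.44, and 0.30 over the solved level with 9 of 12 above 0. With the block 6 rose and 1 fell. Pigx, the partner that stabilises the mannosyltransferase Pigm, was degraded at 0.0886 and 0.140 in wild type and at 0.662 and 0.848 in the knockout. The knockout libraries lay far above, 2.75 ± 0.40 log2 units higher (SE, limma adjusted p = 0.0236). Pigm itself, which adds the first mannose of the anchor, was degraded at 0.750 and 0.830 in wild type and at 0.370 and 0.251 in the knockout. That change, −1.37 ± 0.37, did not pass (SE, limma adjusted p = 0.0619, and 0.0336 with the block), and the partners of this enzyme complex thus had changes of opposite sign; the difference between the 2 genes was not tested. Pigb, which adds the third mannose, had rates of 0.103 and 0.0661 against 0.566 and 0.525, a change of 2.72 ± 0.38 (SE, limma adjusted p = 0.0235). Its libraries were also fully apart. Pigs, a subunit of the transamidase that attaches the anchor, had rates of 0.0518 and 0.0355 against 0.192 and 0.182 and a change of 2.12 ± 0.36 (SE, limma adjusted p = 0.0286). Pigt, of the same transamidase, had rates of 0.0472 and 0.0137 against 0.131 and 0.0887. Its change of 2.09 was close to that of Pigs, but its wild-type libraries were farther apart and limma gave an adjusted p of 0.0970, and 0.0236 with the block. In the complex that starts the anchor by adding GlcNAc, Pigp had a change of 2.46, Pigq of 0.63 and Pigh of 0.02, and none of these 3 passed, although Pigp did with the block (limma adjusted p = 0.0153). Pigf, which takes part in the ethanolamine phosphate steps, had the highest change of the 83 members measured in all libraries, at 2.997 ± 0.93 (SE), but did not pass by limma (adjusted p = 0.0819, and 0.0466 with the block), with wild-type rates of 0.0380 and 0.220. In the authors' deposited table Pigf (2.99, adjusted p = 0.0378) was called, and Dpm3, a dolichol-phosphate mannose synthase subunit measured at 20 min alone, had a higher change of 3.97 (adjusted p = 0.0145).

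N-glycan trimming and branching had 11 measured genes and 0 calls, with a median change of 0.44. Over the solved level the median turned to −0.15, with 4 of 10 genes above 0. With the block 3 rose (Man2a2, Mgat2 and Fut8) and 1 fell (Mgat4b). The range ran from Mgat4b (−1.37), a branching GlcNAc transferase, to Man2a2 (2.31), a Golgi mannosidase. Man2a2 was degraded at 0.0596 and 0.0131 in wild type and at 0.157 and 0.122 in the knockout, without overlap, but its wild-type libraries differed most from each other among these genes. Mgat2, which starts the second branch of complex N-glycans, had rates of 0.245 and 0.336 against 0.656 and 0.794 and a change of 1.33. Fut8, which adds the core fucose, had 0.0829 and 0.133 against 0.276 and 0.306 and a change of 1.47. In limma, Mgat2 had an adjusted p of 0.0632 and Fut8 of 0.0614, and with the block both had 0.0259. Among O-mannose genes, 3 were measured and 0 passed, with or without the block. Their median was 0.86, and −0.38 over the solved level. Pomk, the kinase that phosphorylates the dystroglycan glycan, changed by 1.16 and Pomt2, a subunit of the initiating O-mannosyltransferase, by −0.58, neither past the threshold.

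Mucin-type O-glycosylation is started by the GalNAc transferases, and 3 of the 10 measured rose: Galnt9, Galnt13 and Galnt18. With the block 4 rose. Galnt9 had degradation rates of 0.0654 and 0.0525 in wild type against 0.311 and 0.288, a change of 2.35 ± 0.33 (SE, limma adjusted p = 0.0235). Galnt13 had 0.0860 and 0.0811 against 0.347 and 0.310, and Galnt18 had 0.0816 and 0.0973 against 0.331 and 0.343. Their changes were 1.97 and 1.92 (limma adjusted p = 0.0264 and 0.0282), and in all 3 genes the knockout libraries stood apart from wild type. The median of the 10 was 0.31, below the 0.65 of all genes, and 0.07 over the solved level with 6 of 10 above 0. Galnt2, with 0.0712 and 0.0612 against 0.0496 and 0.0440, had a change of −0.50 that did not pass.

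Of 12 heparan sulfate genes measured, 4 rose: Ext2, Extl2, Hs6st3 and Hs3st2, with a role median of 1.26. Over the solved level the median was 0.06, with 7 of 12 above 0. With the block 7 rose. Ext2, one subunit of the polymerase that extends the chain, was degraded at 0.0862 and 0.0778 in wild type and at 0.544 and 0.505 in the knockout. The log2 change was 2.68 ± 0.32 (SE, limma adjusted p = 0.0235). Ext1, the other subunit, had rates of 0.218 and 0.212 against 0.167 and 0.167, a change of −0.36 ± 0.31 (SE) that did not pass by limma (adjusted p = 0.416). Extl2, a related transferase that can end the chain, had rates of 0.150 and 0.144 against 0.561 and 0.579 and a change of 1.95 (limma adjusted p = 0.0263). Hs6st3, a 6-O-sulfotransferase, had 0.0713 and 0.0446 against 0.230 and 0.210 and a change of 1.96 (limma adjusted p = 0.0360). Hs3st2, a 3-O-sulfotransferase, had 0.0743 and 0.0917 against 0.209 and 0.236 and a change of 1.43 (limma adjusted p = 0.0479), and was named here after its values were seen. Hs3st1, a 3-O-sulfotransferase like Hs3st2, had 0.620 and 0.831 against 0.488 and 1.04, so its genotypes overlapped and its change was −0.01. Of the other sulfotransferases, Chst2, which sulfates GlcNAc, was the only one of 5 measured to rise, where 2 rose with the block. The role's median was 0.22, and −0.06 over the solved level with 0 of 3 above 0. The Chst2 rates were 0.117 and 0.0844 against 0.325 and 0.278, a change of 1.60 (limma adjusted p = 0.0450), and it too was named after its values were seen.

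Of 13 measured sialyltransferases, 3 rose: St3gal3, St8sia2 and St6galnac6, with a role median of 0.98. Over the solved level the median turned to −0.08, with 5 of 12 above 0. With the block 5 rose and 1 fell. St3gal3, which adds α2,3-linked sialic acid, was degraded at 0.0475 and 0.0457 in wild type and at 0.201 and 0.192 in the knockout, a change of 2.08 ± 0.31 (SE, limma adjusted p = 0.0246). St8sia2 and St8sia4 are the polysialyltransferases that act on NCAM, and both had a change of 1.86. St8sia2 had rates of 0.0686 and 0.126 against 0.334 and 0.342 and passed (limma adjusted p = 0.0472), while St8sia4 had 0.280 and 0.505 against 1.06 and 1.75 and passed with the block alone (0.0153, against 0.0598 without it). The knockout rates of St8sia4 at 20 and 60 min were the highest of all members. St6galnac6, of ganglioside synthesis, had 0.0571 and 0.0319 against 0.171 and 0.138 and a change of 1.85 (limma adjusted p = 0.0483). St8sia2 and St6galnac6 were named after their values were seen. St3gal2, another α2,3-sialyltransferase, had rates of 0.113 and 0.0807 against 0.0479 and 0.0335, a change of −1.25 that passed with the block alone (limma adjusted p = 0.0286, against 0.0830 without it).

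In galactosyl, GlcNAc and fucosyl elongation, 1 of 11 genes rose, and with the block 5 rose and 1 fell. The median was 0.80, and 0.05 over the solved level with 5 of 10 above 0. B4galnt4, which builds the LacdiNAc unit, was degraded at 0.0751 and 0.0386 in wild type and at 0.319 and 0.235 in the knockout, a change of 2.35 ± 0.47 (SE, limma adjusted p = 0.0367). Fut9, which makes the Lewis X epitope of neural cells, had the lowest change of the 83 members at −3.35 ± 1.44 (SE). Its wild-type rates were 0.212 and 0.305 against 0.00596 and 0.104 in the knockout, so the size of this change rests on the knockout library of 20 min. By limma it did not pass (adjusted p = 0.152, and 0.0482 with the block). The authors' deposited table gave Fut9 a change of −0.999 (adjusted p = 0.157), and there Pomgnt2, an O-mannose GlcNAc transferase with no knockout rate at 20 min, was lowest at −2.20 (adjusted p = 0.0216). Pomp, matched by name only, had 0.106 and 0.0800 against 0.354 and 0.325 and rose by 1.88 (limma adjusted p = 0.0310). Pom121, with 0.113 and 0.184 against 0.250 and 0.339, changed by 1.02 and passed with the block alone (limma adjusted p = 0.0464). Without these 2 genes 15 of 81 members rose and the median was 0.80.

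With the knockout rate taken over the solved RNA level, 0 of 78 members and 0 of 5332 genes passed by limma (0 members at an unadjusted p under 0.05), whereas the deposited rates of these same genes gave 16 member calls. The median change of the members was then 0.03, against 0.06 over all genes, with 41 members above 0. Of the 16 called genes 11 stayed above 0: Pigx at 0.97, Extl2 at 0.64, Ext2 at 0.57, Galnt13 at 0.48, Pomp at 0.39, Galnt9 at 0.35, Pigb at 0.31, B4galnt4 at 0.23, St6galnac6 at 0.13, St8sia2 at 0.10 and Hs3st2 at 0.012. The other 5, Pigs (−0.23), St3gal3 (−0.10), Hs6st3 (−0.28), Galnt18 (−0.01) and Chst2 (−0.06), came out below 0. For Pigm the change was −0.45, for Fut9 −0.12 and for Ext1 −0.08. Among further genes described above, Pigf had 1.95, St8sia4 0.87, Alg11 0.80, Mgat2 0.62, Alg5 0.45, Pigp 0.43, Alg9 0.30 and Pigt 0.10. Below 0 were Fut8 and Man2a2 (both −0.16) and Pom121 (−0.26), which had deposited changes above 0, and St3gal2 (−0.41), Alg10b (−0.24) and Mgat4b (−0.46).

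**Figure D2:**
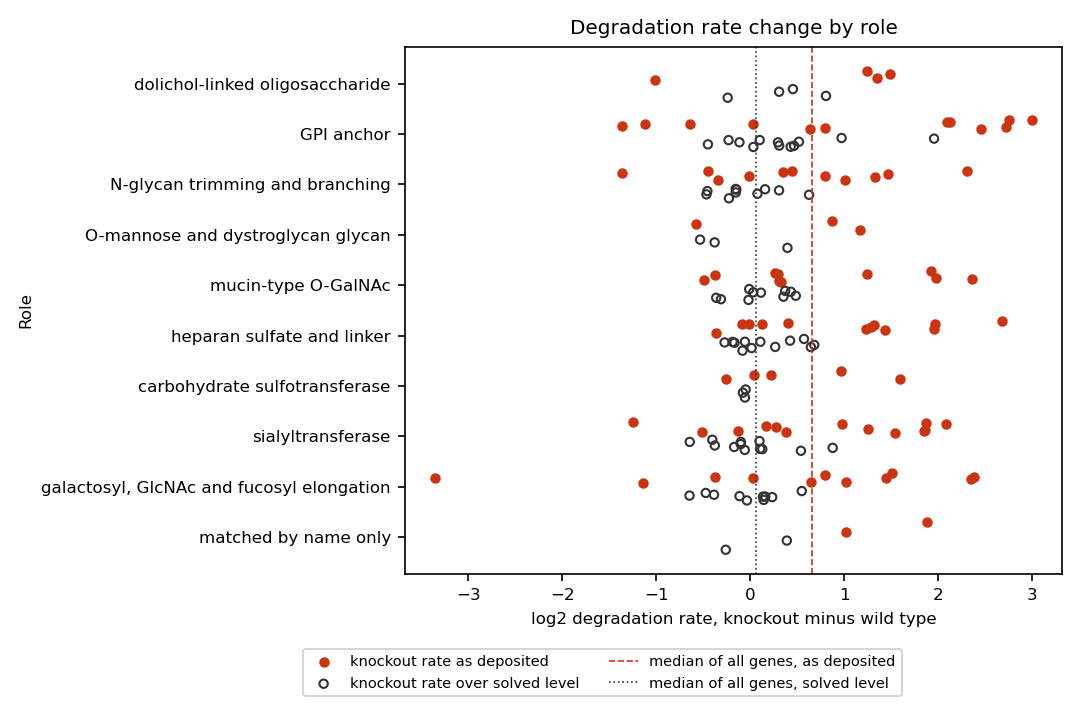
Change of the degradation rate of each member (log2, knockout minus wild type, x axis) by role (y axis); red points use the knockout rates as deposited (83 members), open points the knockout synthesis rate over the solved RNA level (78 members), and vertical lines mark the medians of all genes. Red points spread from −3.35 (Fut9) to 2.997 (Pigf), and 41 of the 78 open points lie above 0.

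The solved mature RNA level was lower in the knockout in 61 of 78 members, with a median change of −0.11 on the log2 scale. Over all 5332 genes it was lower in 69.2%, with a median of −0.09. All 16 genes called for degradation had a lower level in the knockout, and of the 60 members with a degradation change above 0, 56 did. Of the 18 members below 0, 13 had a higher level, as follows from the arithmetic above. The implied level of Ext2 went from 13.4 in wild type to 9.54 in the knockout (−0.49), while that of Ext1 went from 14.9 to 15.4 (0.05). Within the GPI mannosyltransferase, Pigx went from 7.04 to 4.63 and Pigm from 3.57 to 4.88, the highest log2 change of any member at 0.45. St8sia4 had the lowest, −0.71, from 3.46 to 2.11. Fut9 went from 10.99 to 13.3 and Pigb from 3.42 to 2.33. These levels have no replicate, so none of these differences was tested.

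Premature RNA moved the other way: its solved level was higher in the knockout in 55 of 75 members, with a median log2 change of 0.29, the same as the 0.29 of all 5076 genes, of which 3601 were higher. It was higher in 11 of 11 heparan sulfate genes, where the role's median was 0.35, and in 8 of 12 sialyltransferases, where it was 0.08. Among O-mannose genes 1 of 3 was higher (median −0.33), and among the other sulfotransferases 1 of 3 (median −0.0074). Some premature changes recurred across genes: the 10 most frequent values, to 3 decimals, held 26.6% of all genes, against 3.90% for mature levels. Alg11, Mgat1, Pigh, Pomk, St6galnac6 and St8sia3 shared the same value of −0.33 to 3 decimals, and Extl3, Mgat4b, Pigx and St3gal1 shared 0.26. Relative to −0.33, the most frequent value of all genes, the change equalled a ratio of whole numbers of up to 10, within 0.001 log2 units, in 30 of 75 members (40.0%) and 45.3% of all genes. For mature levels this share was 4.89% of genes. Premature levels were small beside mature ones: in wild type Pigs had 0.0495 premature against 22.7 mature, and Ext2 had 0.154 against 13.4.

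**Figure D3:**
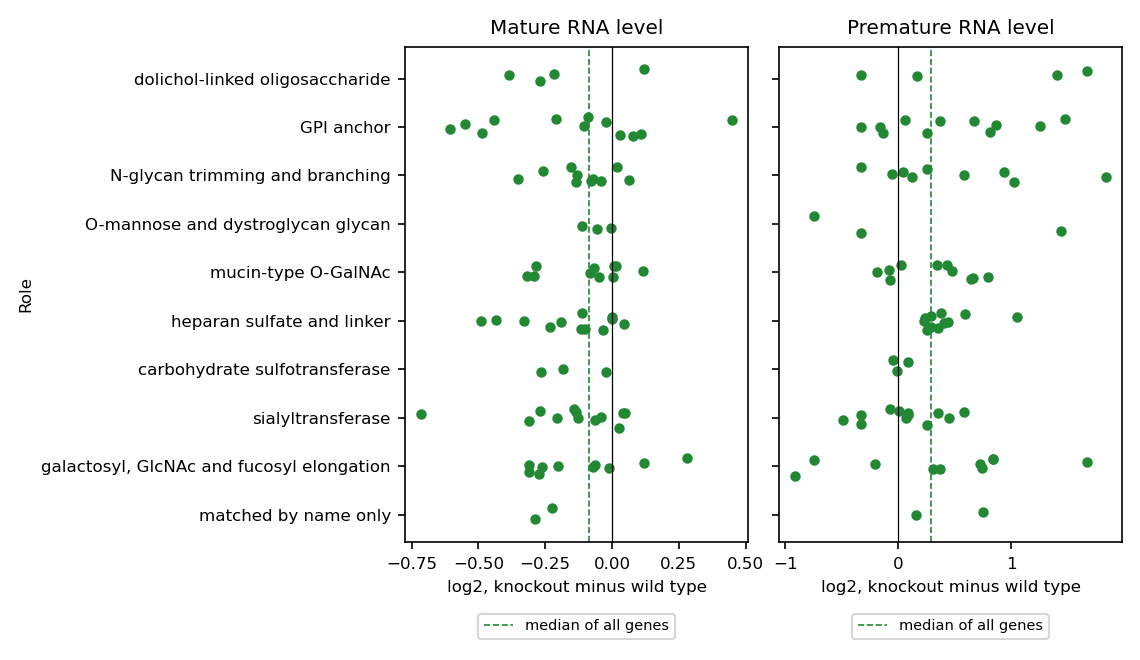
Change of the RNA level solved from the rates (log2, knockout minus wild type, x axis) for mature RNA (left, 78 members) and premature RNA (right, 75 members), by role (y axis); each point is a gene and the dashed line is the median of all genes. Most points lie left of 0 for mature RNA (61 of 78) and right of 0 for premature RNA (55 of 75).

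Synthesis rates differed among members far more than between genotypes. Within roles, by the mean log2 rate of the 2 wild-type libraries, the highest and lowest synthesis rates belonged to Alg10b (3.78 and 5.16 at 20 and 60 min) and Alg13 (0.318 and 0.0808) for the dolichol-linked oligosaccharide, and to Pigm (2.68 and 2.96) and Pign for the GPI anchor. N-glycan processing ran from Mgat2 (3.35 and 4.61) down to Man2b1 (0.106 and 0.0458), a lysosomal mannosidase matched by its name. The O-mannose genes ran from Pomgnt2 (2.69 and 3.19) to Pomt1 (0.436 and 0.180), and the GalNAc transferases from Galnt2 (2.66 and 2.29) to Galnt13 (0.266 and 0.251). Among heparan sulfate genes Hs3st1 was highest and Ndst2 lowest (0.236 and 0.501), and among other sulfotransferases Chst1 (6.16 and 6.50) and Chst8 (0.907 and 0.915). At a single labelling time the order could differ: Chst2 was above Chst1 at 20 min (7.35) and Chst15 below Chst8 (0.810), and at 60 min Galnt14 was below Galnt13 (0.225) and Extl1 below Ndst2 (0.236). St3gal1 (2.98 and 8.37) and St3gal4 (0.370 and 0.328) bounded the sialyltransferases, and B3galt2 (4.43 and 3.86) and B3gntl1 (0.383 and 0.175) the elongation enzymes. These are rates per gene as deposited, and whether they are scaled to transcript length is not given in the sources used here. In the 2 wild-type libraries, members with more exons had lower synthesis rates, with a Spearman rho of −0.461 against −0.343 over all genes, as a description across genes that share libraries.

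No member's synthesis rate passed the test between genotypes: limma called 0 of 83, as it called 0.0% of 5794 genes. At an unadjusted limma p under 0.05 were 0 members and 18 of the 5794 genes. The authors' deposited table called 0 of 89 members. In 5 members both knockout libraries lay above both wild-type libraries and in 11 below, against 8.92% and 9.2% of all genes. The median change was −0.06 against −0.03 over all genes, with 32 members above 0 and 51 below. The members with the smallest p were St3gal4, Pigf, B3gntl1 and B4galt2. St3gal4, an α2,3-sialyltransferase, was synthesised at 0.370 and 0.328 in wild type against 0.151 and 0.273, a change of −0.78 ± 0.47 (SE). B3gntl1, a putative β1,3-transferase, had 0.383 and 0.175 against 0.165 and 0.136 and a change of −0.79. B4galt2, a galactosyltransferase, had 3.55 and 1.16 against 1.63 and 0.714, so its genotypes overlapped, with a change of −0.91. Pigf had 0.157 and 0.905 against 1.60 and 0.717, a change of 1.51 ± 0.95 (SE) that came from the libraries of 20 min alone. The members' synthesis change and the GC content of their transcripts had a Spearman rho of −0.486, against −0.377 over all genes. For the deposited degradation change these were 0.274 and 0.314, and against transcript length −0.442 and −0.123. With the knockout rate over the solved level the sign against GC content turned, to −0.360 and −0.180, and the rho against length was −0.092 and −0.056.

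Synthesis rates differed between labelling times, mostly in the same direction in both genotypes. The difference between 60 and 20 min had the same sign in wild type and knockout in 69 of 83 members (83.1%, against 78.8% of all genes), with a Spearman rho of 0.781 across members and 0.735 across all genes. Man2a2, the Golgi mannosidase, had 1.65 and 0.361 in wild type against 1.18 and 0.328, lower at 60 min in both. Pigt had 2.05 and 0.593 against 2.23 and 0.540, also lower at 60 min. St3gal1 had 2.98 and 8.37 against 2.99 and 6.62 and Galnt11, a GalNAc transferase, had 0.470 and 1.47 against 0.779 and 1.63, both higher at 60 min. The difference between labelling times exceeded that between genotypes in each of these 4 genes. Pigf, one of the 14 members whose signs differed, was higher at 60 min in wild type and lower in the knockout.

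**Figure D4:**
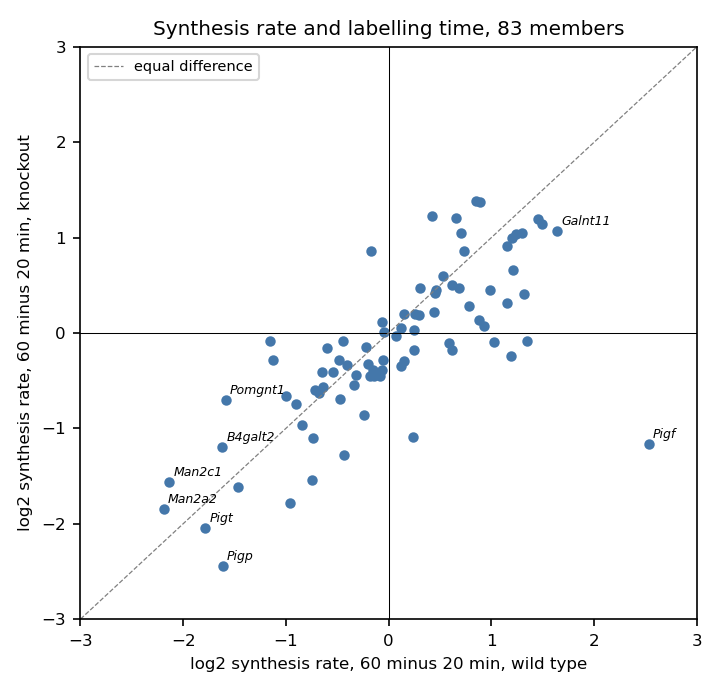
Difference in synthesis rate between 60 and 20 min of labelling (log2) in wild type (x axis) and knockout (y axis) for 83 members; each point is a gene, the dashed line marks equal differences, and the genes with the largest wild-type differences are named. The points share a sign in 69 of 83 genes, and Pigf lies farthest from the line, at 2.53 in wild type and −1.16 in the knockout.

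Processing rates were lower in the knockout for most members, but 0 of 75 passed by limma, as did 0.0% of 5082 genes. At an unadjusted limma p under 0.05 were 13 members and 783 of the 5082 genes. The authors' deposited table called 0 of 83 members. The median change was −0.50 on the log2 scale, against −0.36 over all genes, with 55 members below 0 and 20 above. In 33 members both knockout libraries lay below both wild-type libraries and in 8 above, against 35.1% and 11.5% of all genes. With labelling time as a block in limma, 17 members fell and 2 rose (25.3% of members), where 19.3% of all genes fell and 6.26% rose. With the block and centring 8 fell and 3 rose, against 6.4% and 7.14% of all genes. Both labelling times share 1 premature level per genotype, so their agreement is no replication of that level. The same fit over solved levels without the block gave 0 calls and a median of −0.44.

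Pigs, the transamidase subunit, had the smallest p of any member for processing, with rates of 23.8 and 16.3 in wild type against 5.36 and 3.89. Its change was −2.11 ± 0.45 (SE, limma adjusted p = 0.151, and 0.00956 with the block, over a range of 0.00956 to 0.567 in all settings tried). Pomt2, of O-mannosylation, had 17.2 and 10.97 against 3.85 and 2.75, a change of −2.08 (limma adjusted p = 0.156, and 0.00976 with the block, range 0.00976 to 0.591). Alg10b had 32.4 and 44.2 against 8.77 and 11.9, a change of −1.89 (limma adjusted p = 0.166, and 0.0113 with the block, range 0.0113 to 0.628). B3gntl1 had 4.70 and 2.15 against 0.841 and 0.624, a change of −2.13 (limma adjusted p = 0.177, and 0.0122 with the block, range 0.0122 to 0.553). In all 4 genes the knockout libraries lay below both wild-type libraries. The implied premature change of Alg10b, 1.67, was the same as that of B4galt3 to 3 decimals. It is thus among the recurring values described above and rests on 1 level per genotype without replicate. The 2 members that rose with the block, named after their values were seen, were B3galt2, a β1,3-galactosyltransferase, with 23.5 and 20.4 against 56.9 and 45.5, and Fut11, a fucosyltransferase, with 2.15 and 1.42 against 4.32 and 3.94. Man2c1, a cytosolic mannosidase, had the lowest processing change at −4.43 ± 1.67 (SE), with 12.8 and 2.91 against 1.56 and 0.0512, so its size rests on the knockout library of 60 min. Pigs combined a high degradation change with a low processing change, and its implied premature level went from 0.0495 to 0.138.

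**Figure D5:**
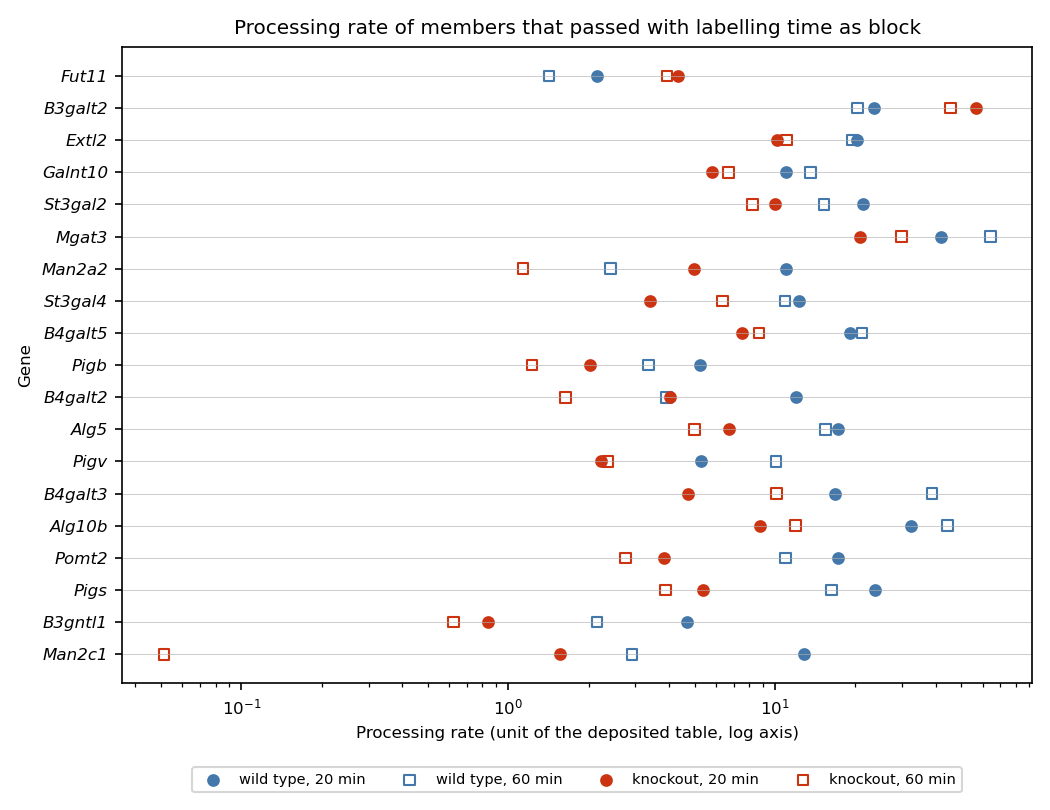
Processing rate on a log axis, in the unit of the deposited table, of the 19 members that passed with labelling time as a block (0 passed without it); circles are libraries of 20 min and squares of 60 min, blue for wild type and red for knockout, with 1 point per library. Red points lie left of blue at the same labelling time in 17 genes and right of them in Fut11 and B3galt2.

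Genes that work with these enzymes but have other names were read from lists of 109 genes in the rate table. In degradation, 18 of the 66 measured rose and 0 fell by limma, with a median of 0.79, against 20.5% of all genes called higher and a median of 0.65. With the block 24 of the 66 rose and 4 fell, against 38.2% and 9.76% of all genes. In synthesis (66 measured) 0 passed with or without the block, and in processing (62 measured) 0 passed without it, while with it 4 rose and 15 fell, against 6.26% and 19.3% of all genes. The COG complex, which tethers vesicles that return glycosylation enzymes within the Golgi, had 5 of 7 genes higher and a median of 2.22 (0.55 over the solved level). Cog4 had degradation rates of 0.0364 and 0.0438 against 0.533 and 0.530, a change of 3.74 (limma adjusted p = 0.0235). Of 4 measured genes of the list on glucose and mannose trimming of new N-glycans, 3 rose: the glucosidase subunits Prkcsh (by 3.30) and Ganab (by 2.60) and the folding sensor Uggt1 (by 2.40). Edem3, which acts in mannose trimming, had a change of 0.18 (limma adjusted p = 0.867). Of 6 oligosaccharyltransferase subunits, which transfer the finished block to proteins, 2 rose (Rpn1 by 2.02 and Ddost by 1.60), and Srd5a3, a reductase that makes dolichol, rose by 2.65. Gpaa1, which works with Pigs and Pigt in the transamidase, had 0.0396 and 0.0252 against 0.442 and 0.421 and a change of 3.77 (limma adjusted p = 0.0235), with its knockout libraries far above wild type. Of the 5 measured genes that make nucleotide sugars 0 rose (1 with the block), and of 7 nucleotide sugar transporters 2 did, with or without the block. Of 12 GPI-anchored neuronal proteins 1 rose, Cntn2, by 3.04, while with the block 2 rose and 2 fell. Over the solved level, which was not available for Cntn2, Cog4 was at 1.26, Gpaa1 at 0.78, Prkcsh at 0.76, Srd5a3 at 0.53, Uggt1 at 0.27, Rpn1 at 0.24, Ganab at 0.13 and Ddost at 0.09, and 0 of all genes passed there.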

How the data were processed

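Cortical neurons of wild-type and Fmr1-KO mice were labelled with 5-EU and the labelled RNA was sequenced; 4 labelled libraries of the 10 samples carry the rates. Per the labels, the authors estimated synthesis, processing and degradation rates with INSPEcT, and the deposited rates are linear signal values, given in 12 columns. The submitters' processing notes name cutadapt, Bowtie2, TopHat2, HISAT2 and limma, with the builds mm10, dm6 and sacCer3, without versions or roles; how the spike-ins entered the rates is not given in the sources used here. The authors' deposited tables of knockout against wild type hold log2 fold changes, p-values and adjusted p-values of limma, and score columns (moderated statistic and log odds) that were not used. Per-sample columns left unused numbered 0.

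Genes with a rate above 0 in all 4 libraries were kept, and log2 rates without a pseudocount were fitted with limma 3.58.1 (R 4.3.3; lmFit, eBayes, two-sided) over the whole table, with Benjamini-Hochberg adjustment and a threshold of 0.05. Same-numbered libraries share a labelling time per the labels, and over all genes the 60 minus 20 min differences of wild type and knockout had Spearman rho of 0.652 (degradation), 0.735 (synthesis) and 0.735 (processing), so calls with labelling time as a block are given beside counts that they change. The fit was tested on simulated data with independent noise per gene and library. These data held no labelling-time effect, shift between genotypes or shared RNA level, so that test could not check them. Alternatives were centring, quantile normalization, a filter at the 25th percentile of rates, a pseudocount, a variance trend, a threshold of 0.01, the authors' table, leaving out each library, and the knockout rate over the solved level, added after seeing the data. For a gene without premature RNA the premature term of the solved level was left out.

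Genes were named by rule: the 12 largest rises and 8 largest falls among calls, the 4 smallest p where a rate had no call, the highest and lowest synthesis in each role, and 2 called genes per further list; others named for contrast were chosen after their values were seen. The members, roles and lists were chosen with earlier results of these data known. Annotation was GENCODE M21 (GRCm38), in which all 108 members matched, and promoters were RefSeq's.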

Additional observations from a re-analysis of the deposited data

Results flagged for a closer look

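The synthesis rate change between genotypes differed in sign between labelling times in 35 of 83 members (42.2%, against 43.4% of all genes), and no such difference was tested, since each genotype has 1 library per labelling time. For degradation this held in 13 of 83 members (15.7%, against 11.6% of all genes) and for processing in 11 of 75 (14.7%, against 20.9%). Among the median and the genes named by rule for their change, it held for the synthesis median and for Pigf. The median synthesis change of the members was 0.04 at 20 min and −0.15 at 60 min, a difference of −0.19 on the log2 scale. The synthesis change of Pigf, of the GPI anchor, was 3.36 at 20 min and −0.33 at 60 min, a difference of −3.69. Groups held too few libraries for a check of single outlying libraries.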

How the results depend on the processing

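Degradation calls among members numbered 16, and 42 with the replicate block, 0 with centring, 5 with quantile normalization, 25 with the block and centring, 27 with a pseudocount, 0 at a threshold of 0.01, 32 in the authors' deposited table and 0 over the solved level; leaving out 1 library at a time, with 1 residual degree of freedom, gave 0 to 16. Within 1.5 times of the 16 were 22 with the low-rate filter, 21 with a trend and 15 without genes matched by name only. Of all 5716 genes, 1321 were called in the main fit and 92 with centring, and shares with the block are given above. For quantile normalization, the pseudocount, the filter and the trend no share of all genes is given. Member counts under these settings are thus not read as traits of the members. The median degradation change of 0.86 became 0.0079 with centring, with or without the block, 0.16 with quantile normalization, 0.63 with a pseudocount, 0.80 in the authors' table, 0.80 without genes matched by name only, 0.031 over the solved level and 0.99 with deposited rates of the genes that have one; without 1 library it was 0.84 to 0.97. Over the solved level 5 of the 16 called genes changed sign: Pigs (−0.23), St3gal3 (−0.10), Hs6st3 (−0.28), Galnt18 (−0.014) and Chst2 (−0.059). Synthesis calls were 0 under every setting tried. Processing calls went from 0 to 19 with the block and 11 with the block and centring, and were 0 to 1 without 1 library; the median of −0.50 became −0.15 with centring, with or without the block, and −0.10 with quantile normalization. The cause of these moves was not tested. With 1 labelled library per genotype and labelling time, 1 shared RNA level per genotype and unknown read depth, the error of a level, and of a rate's level term, cannot be estimated.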
